A study of Bos taurus with 6 samples.

Results

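The miRNAs bta-miR-155, bta-miR-146a and bta-miR-146b were examined in extracellular vesicles (EVs) of bovine granulosa cells, as the miRNAs of the inflammatory NF-kB pathway. They were chosen by their exact identifiers, and all 3 were found among the 512 miRNAs listed for each of the 6 libraries. The granulosa cells came from small antral follicles (3 to 6 mm) of slaughterhouse ovaries and grew in medium with exosome-depleted fetal bovine serum. After a first day of culture, cells were kept at 37 °C (control-EVs, 3 libraries) or exposed to 42 °C (HS-EVs, 3 libraries) for 24 h, and small RNA was sequenced from EVs precipitated from the spent medium. Bovine cells and bovine serum carry the same miRNAs, so the values do not separate EVs released by the cells from serum EVs that remained in the medium. The study calls the libraries of a group biological replicates, but the labels do not state whether they came from separate animals or cultures, and p-values measure the spread between these libraries.

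NF-kB is a transcription factor that switches on inflammatory genes, and the genes of miR-155, miR-146a and miR-146b are among its known targets. miR-146a and miR-146b repress the adaptors TRAF6 and IRAK1 and so dampen the signal that induced them, while miR-155 represses SOCS1 and the phosphatase SHIP1 and is best known from activated lymphocytes and macrophages. miR-146a and miR-146b carry the same seed, the stretch near the 5′ end that selects targets, and differ in a few bases near the 3′ end. Reads could thus be assigned to the wrong one of them, whereas miR-155 has another seed. RefSeq lists 1 gene for each of the 3 miRNAs on the ARS-UCD2.0 assembly, which is not the one the authors mapped to. By the nearest protein-coding genes, MIR155 lies between MRPL39 and NCAM2, MIR146A between PTTG1 and ATP10B, and MIR146B between CUEDC2 and C26H10orf95, and no other listed gene spans them.

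The deposited values are normalized read counts. Whole reads were recovered from them, 274434 to 2360980 per library. In each library this total was larger than the number of miRNA reads that the study lists, and the reason was not tested. If reads were counted more than once, the counting errors given here are too small. The miRNA bta-miR-1246 took 59.9% to 98.6% of these reads, and 34141 to 235634 reads were left for all other miRNAs. HS-EVs replicate 1 stood apart, with the most reads, the largest share on bta-miR-1246 and the fewest reads on other miRNAs. A single read was worth 0.697 to 4.11 normalized counts, most in HS-EVs replicate 1, where the floor of 3 reads, the limit that a count of 0 allows, equals 12.3 normalized counts. Intervals of shares and ratios and this floor cover counting error only, while intervals of log2 fold changes reflect the spread between libraries. The counts are relative, and from them a difference in EV number cannot be told apart from a difference in RNA per EV.

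The 3 miRNAs differed widely in abundance. bta-miR-155 ranked 3 of 512 by mean log2(normalized read count + 1) over the 6 libraries, behind bta-miR-1246 and bta-miR-122, a liver miRNA that is abundant in serum. bta-miR-146b ranked 73 and bta-miR-146a ranked 116. In single libraries the rank of bta-miR-155 lay between 2 and 6, that of bta-miR-146b between 46 and 115 and that of bta-miR-146a between 86 and 141. The best ranks of all 3 were found in HS-EVs replicate 3.

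**Figure D1:**
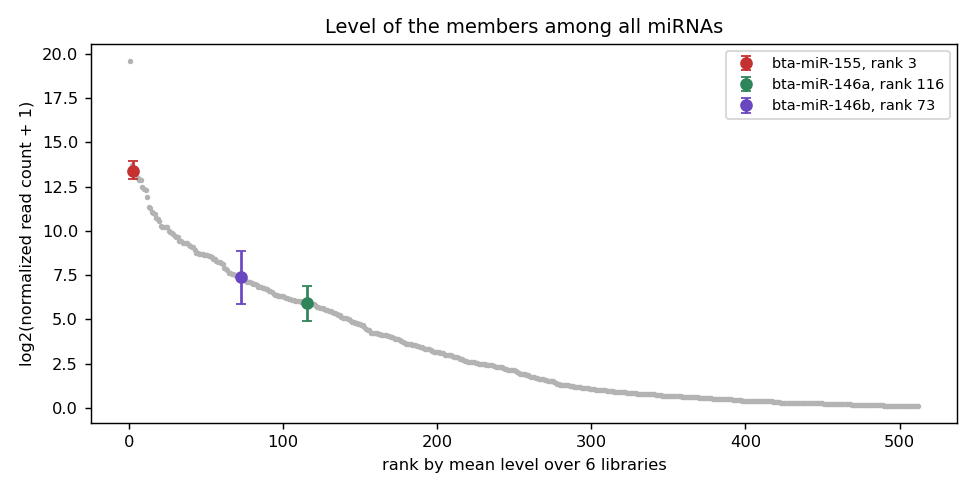
Mean log2(normalized read count + 1) over 6 EV libraries (y axis) of 512 miRNAs ordered by this mean (x axis, rank); coloured points mark the 3 miRNAs and their bars run from the lowest to the highest library. bta-miR-155 sits at rank 3, bta-miR-146b at rank 73 and bta-miR-146a at rank 116.

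Neighbours in this order were not separated from the 3 miRNAs. bta-miR-155 was lower than bta-miR-122 by a mean of 0.34 on the log2 scale, with an SD of 0.85 over the 6 libraries, and exceeded it in 2 of 6. Next below it were bta-miR-21-5p, exceeded in 4 of 6 libraries (mean log2 difference 0.11 ± 0.23, SD, n = 6), and bta-let-7a-5p, also exceeded in 4 of 6 (0.16 ± 0.53, SD, n = 6). bta-miR-146b exceeded its neighbours bta-miR-92b and bta-miR-133a in 3 of 6 libraries each. bta-miR-146a likewise exceeded bta-miR-7 and bta-miR-484 in 3 of 6 libraries each.

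For bta-miR-155, the normalized read count was 7808, 10963 and 12389 in control-EVs replicates 1, 2 and 3 and 7914, 12549 and 15471 in HS-EVs replicates 1, 2 and 3. These values rest on 4254, 15722 and 6270 reads in control-EVs and on 1926, 11409 and 9492 reads in HS-EVs. The groups overlapped, the libraries numbered 1 were the lowest of each group, and the HS-EVs library was the higher one in each same-numbered pair. The ratio of HS-EVs to control-EVs was 1.01, 1.14 and 1.25 in pairs 1, 2 and 3. Control-EVs averaged 10387 ± 2344 and HS-EVs averaged 11978 ± 3811 (SD, n = 3 each). The coefficient of variation was 22.6% in control-EVs and 31.8% in HS-EVs, and the counting error of a library was 0.798% to 2.28%.

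bta-miR-146b, which is encoded apart from bta-miR-146a but has the same seed, varied most between libraries. Its normalized read count was 60.6, 159 and 322 in control-EVs replicates 1, 2 and 3 and 57.5, 244 and 460 in HS-EVs replicates 1, 2 and 3. The highest library thus exceeded the lowest by 5.32 times within control-EVs and by 7.99 times within HS-EVs. The libraries numbered 1 were again the lowest of each group, and those numbered 3 the highest. It was counted from 33, 228 and 163 reads in control-EVs and from 14, 222 and 282 reads in HS-EVs. The ratio of HS-EVs to control-EVs was 0.950, 1.54 and 1.43 in pairs 1, 2 and 3, so that HS-EVs were higher in 2 of 3 pairs. Control-EVs averaged 181 ± 132 and HS-EVs averaged 254 ± 201 (SD, n = 3 each), and the difference was smaller than either SD. The residual SD of bta-miR-146b on the log2 scale, 1.37, lay at the 95.7th percentile of the 512 miRNAs, whose median was 0.63, while that of bta-miR-155, 0.43, lay at the 20.3rd percentile.

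bta-miR-146a was the rarest of the 3. Its normalized read count was 34.9, 40.4 and 92.9 in control-EVs replicates 1, 2 and 3 and 28.8, 90.2 and 116 in HS-EVs replicates 1, 2 and 3. Only 19, 58 and 47 reads lay behind the control-EVs values and 7, 82 and 71 behind the HS-EVs values, so that the counting error reached 37.8% in HS-EVs replicate 1. The ratio of HS-EVs to control-EVs was 0.825, 2.23 and 1.25 in pairs 1, 2 and 3. Its coefficient of variation was 57.1% in both groups. The groups overlapped, with means of 56.1 ± 32.0 for control-EVs and 78.2 ± 44.7 for HS-EVs (SD, n = 3 each).

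**Figure D2:**
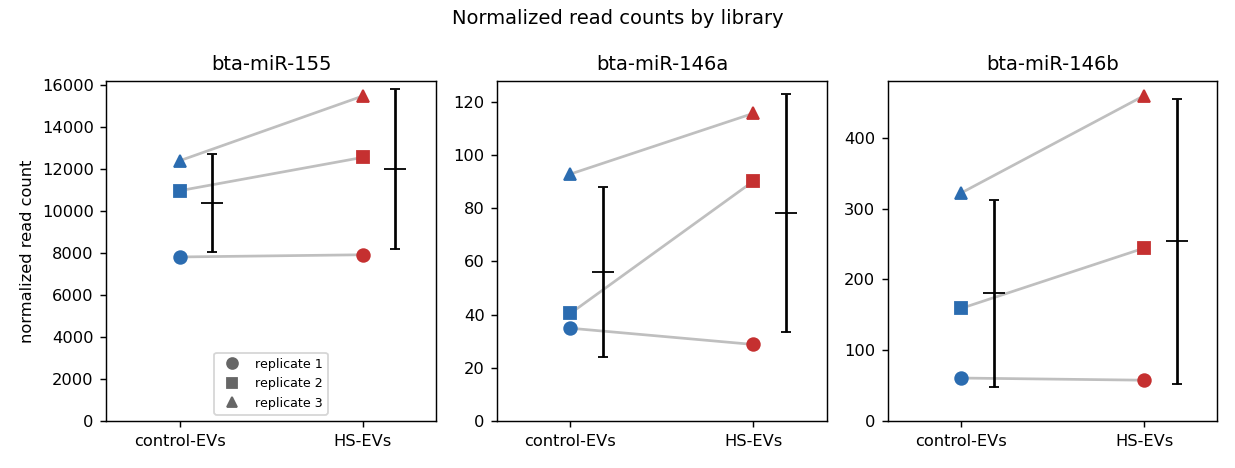
Normalized read counts (y axis, from 0) of bta-miR-155, bta-miR-146a and bta-miR-146b in control-EVs (blue) and HS-EVs (red); symbols mark the replicate number, grey lines join libraries of the same number and black bars give the mean ± SD (n = 3). The libraries numbered 1 are the lowest and those numbered 3 the highest in every panel and group, and the groups overlap in all 3 panels.

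To determine whether heat exposure changed these miRNAs, HS-EVs were compared with control-EVs by limma on log2(normalized read count + 1), fitted over all 512 miRNAs. A miRNA passed when its Benjamini-Hochberg adjusted p-value was at most 0.3 and its log2 fold change at least 1 in either direction, the threshold of the study. In limma, none of the 3 miRNAs passed (0 of 3), and neither did any of the 512 (0%). The study applied this threshold to its own edgeR test and reported some miRNAs as enriched in HS-EVs. bta-miR-1246 was among those, and none of the 3 was. In the limma fit the log2 fold change of bta-miR-1246 was 1.79 (adjusted p = 0.873 from limma). At an unadjusted p-value of 0.05 or less, 0 of the 3 and 25 of the 512 (4.88%) were found, and groups did not overlap in 0 of the 3 and in 33 of the 512 (6.45%). On the recovered reads, edgeR's quasi-likelihood test passed 3 miRNAs and DESeq2 passed 0, with 0 of the 3 among them in both.

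The log2 fold change of bta-miR-155 was 0.18 (standard error 0.47, 95% interval -0.87 to 1.23, adjusted p = 0.952 from limma). That of bta-miR-146b was 0.35 (standard error 0.83, interval -1.49 to 2.20, adjusted p = 0.952 from limma). For bta-miR-146a it was 0.39 (standard error 0.63, interval -1.01 to 1.80, adjusted p = 0.892 from limma). All 3 intervals included 0 and, at their upper ends, more than a doubling. The narrowest was that of bta-miR-155, the miRNA with the most reads. The sign of the small differences depended on single libraries. It turned for bta-miR-155 without control-EVs replicate 1 (-0.01) or HS-EVs replicate 3 (-0.03) and for bta-miR-146b without the same libraries (-0.28 and -0.30). Without HS-EVs replicate 1, the log2 fold changes were 0.45, 1.19 and 0.99 for bta-miR-155, bta-miR-146b and bta-miR-146a, and their adjusted p-values from limma lay between 0.784 and 0.809. For bta-miR-146a the value fell to 0.13 without control-EVs replicate 1 and to 0.01 without HS-EVs replicate 3. Without both libraries numbered 1, the values stayed above 0, at 0.26, 0.56 and 0.73 for bta-miR-155, bta-miR-146b and bta-miR-146a.

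**Figure D3:**
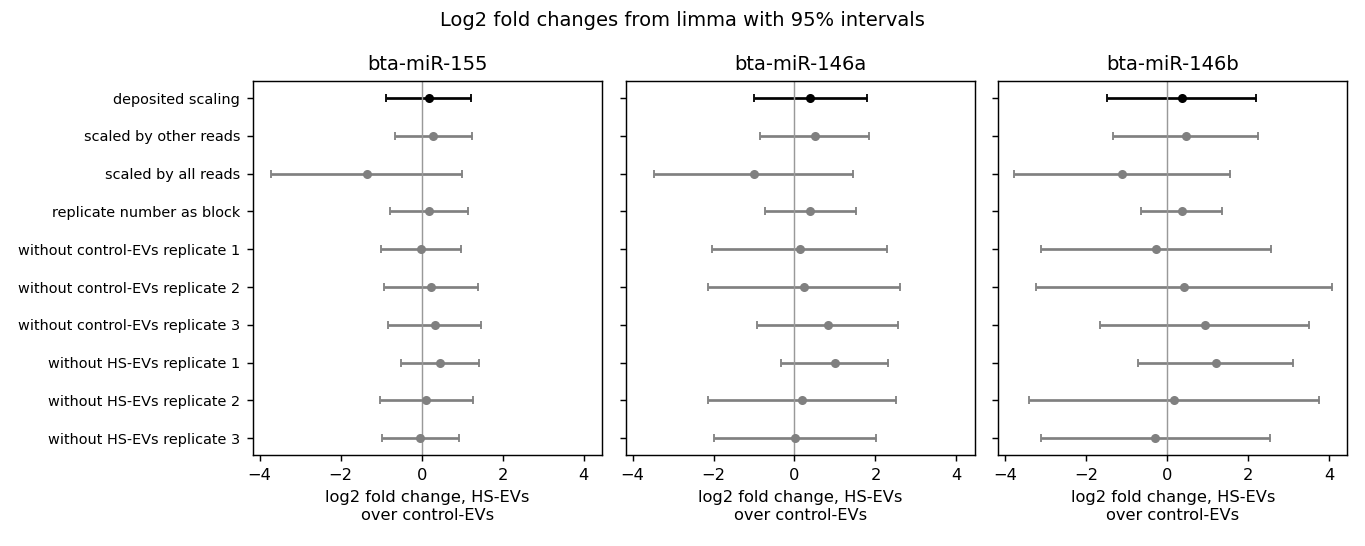
Log2 fold change of HS-EVs over control-EVs (x axis) from limma with 95% intervals for the 3 miRNAs, with the deposited scaling (black) and with other scalings, the replicate number as a block or 1 library left out (grey). Every interval includes 0, and all 3 points lie below 0 when reads are scaled by all reads (-1.35, -1.01 and -1.11 for bta-miR-155, bta-miR-146a and bta-miR-146b).

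The direction also depended on what the reads were related to. As a share of all reads, bta-miR-155 took 0.854%, 2.67% and 2.28% in control-EVs replicates 1, 2 and 3 and 0.0816%, 2.25% and 1.70% in HS-EVs replicates 1, 2 and 3. It was lower in HS-EVs in 3 of 3 pairs, with means of 1.94% ± 0.959 for control-EVs and 1.34% ± 1.13 for HS-EVs (SD, n = 3 each). A two-sided exact permutation test gave p = 0.5, where groups of 3 cannot go below 0.1. The difference of the means was -0.593 percentage points, and 0.0387 without HS-EVs replicate 1. That setting kept control-EVs replicate 1, the lowest of its group. In pairs 2 and 3 the share in HS-EVs was 0.842 and 0.744 times that in control-EVs. As a share of the reads other than bta-miR-1246, it took 5.55%, 6.67% and 8.52% in control-EVs and 5.64%, 9.24% and 10.9% in HS-EVs. On this base it was higher in HS-EVs in 3 of 3 pairs, with means of 6.92% ± 1.50 and 8.61% ± 2.71 (SD, n = 3 each; exact permutation test, two-sided, p = 0.4). The 95% Wilson interval of the lowest of these shares was 5.39% to 5.72% and that of the highest 10.7% to 11.2%.

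Both miR-146 miRNAs took small shares by either base. Of the reads other than bta-miR-1246, bta-miR-146b took 0.120% ± 0.0916 in control-EVs and 0.182% ± 0.142 in HS-EVs (SD, n = 3 each; exact permutation test, two-sided, p = 0.7). For bta-miR-146a the shares were 0.0378% ± 0.0226 and 0.0563% ± 0.0319 (SD, n = 3 each; exact permutation test, two-sided, p = 0.6). As shares of all reads their means were lower in HS-EVs, 0.0349% against 0.0316% for bta-miR-146b (p = 0.8, same exact permutation test) and 0.0103% against 0.00973% for bta-miR-146a (p = 0.9, same exact permutation test). Without HS-EVs replicate 1 these differences were above 0 as well, at 0.0122 and 0.00418 percentage points. These 6 comparisons of shares were made for the 3 miRNAs on 2 bases. Scaling by all reads moved the median of all 512 log2 fold changes from 0.01 to -0.79. Because this scaling multiplies all miRNAs of a library by the same factor, it does not change their order within the library, and the added 1 holds miRNAs with few reads near their place.

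**Figure D4:**
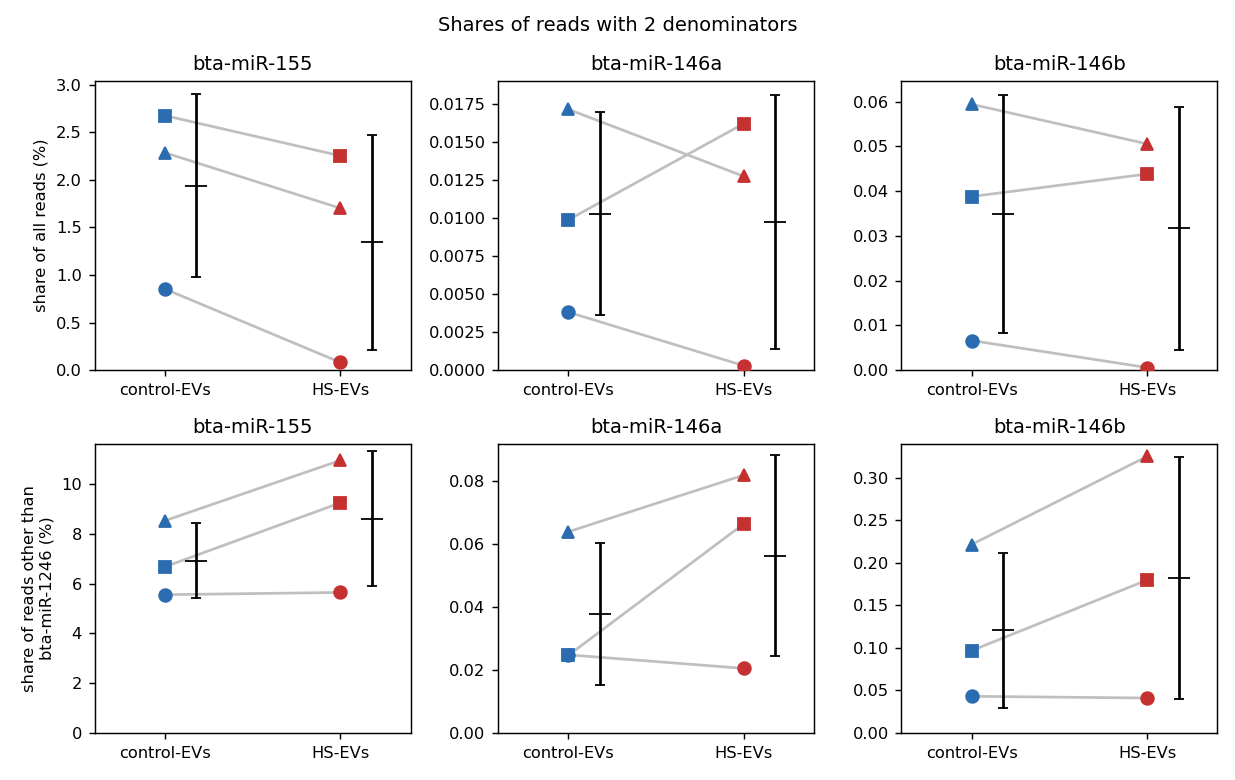
Shares of reads in percent (y axes, from 0) of the 3 miRNAs among all reads (upper row) and among the reads other than bta-miR-1246 (lower row) in control-EVs (blue) and HS-EVs (red); circles, squares and triangles are replicates 1, 2 and 3, grey lines join equal numbers and black bars give the mean ± SD (n = 3). The share of bta-miR-155 falls from control-EVs to HS-EVs in 3 of 3 pairs in the upper row and rises in 3 of 3 pairs in the lower row.

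Ratios between members within a library do not depend on scaling. In each of the 6 libraries bta-miR-155 exceeded bta-miR-146b, and bta-miR-146b exceeded bta-miR-146a. The geometric mean of the ratio of reads over the 6 libraries was 2.79 for bta-miR-146b over bta-miR-146a, 65.2 for bta-miR-155 over bta-miR-146b and 182 for bta-miR-155 over bta-miR-146a. For all 3 ratios the exact sign-flip test over the 6 libraries gave p = 0.03125 (two-sided), the smallest it can give. miRNAs are captured with unequal efficiency during ligation, so the ratios hold for reads and not for molecules in the EVs.

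The ratio of bta-miR-146b to bta-miR-146a was 1.74, 3.93 and 3.47 in control-EVs replicates 1, 2 and 3 and 2, 2.71 and 3.97 in HS-EVs replicates 1, 2 and 3. It averaged 3.05 ± 1.16 over control-EVs and 2.89 ± 0.999 over HS-EVs (SD, n = 3 each), and the groups did not differ beyond their spread (mean log2 difference -0.05, exact permutation test, two-sided, p = 1). In the libraries numbered 1, with 33 and 14 reads of bta-miR-146b, the 95% Wilson interval of the ratio reached below 1, from 0.995 to 3.03 in control-EVs and from 0.831 to 4.82 in HS-EVs.

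The ratio of bta-miR-155 to bta-miR-146b was highest in the libraries numbered 1 and lowest in those numbered 3 in both groups. It was 129, 69.0 and 38.5 in control-EVs replicates 1, 2 and 3 and 138, 51.4 and 33.7 in HS-EVs replicates 1, 2 and 3. The 95% Wilson intervals, for counting error only, were 91.7 to 181 and 81.8 to 231 in the libraries numbered 1. Between the groups the mean log2 difference was -0.18 (exact permutation test, two-sided, p = 0.8). bta-miR-155 over bta-miR-146a was 224, 271 and 133 in control-EVs and 275, 139 and 134 in HS-EVs, a mean log2 difference of -0.24 (exact permutation test, two-sided, p = 0.8). In both groups the lowest value of this ratio was that of the library numbered 3.

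**Figure D5:**
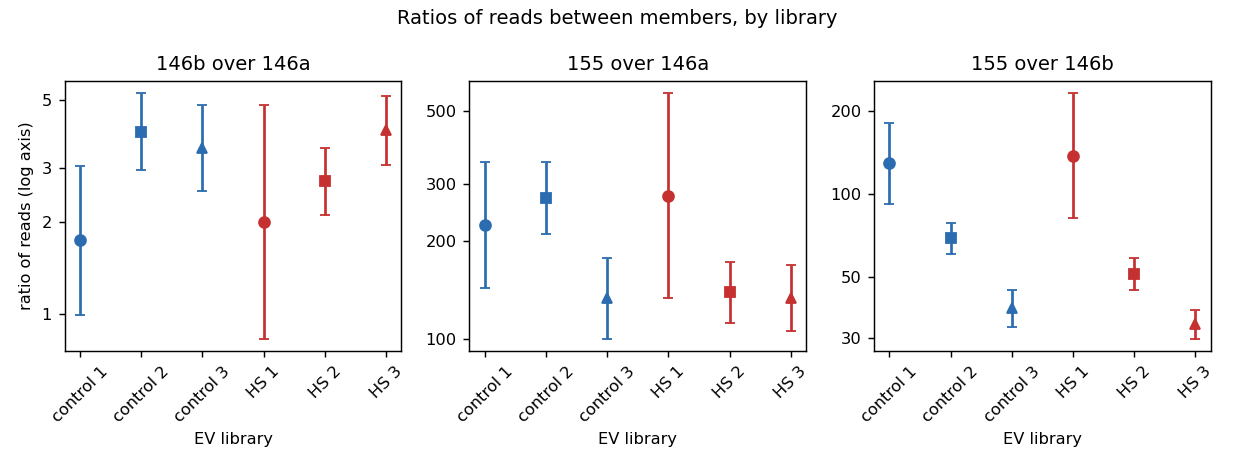
Ratios of reads between members (y axes, log scale) in the 6 EV libraries (x axis), with 95% Wilson intervals for counting error; control-EVs are blue and HS-EVs red. The ratio of bta-miR-155 to bta-miR-146b is 129 and 138 in the libraries numbered 1 and lies between 33.7 and 69.0 in the others, while no ratio separates the groups.

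The 3 miRNAs went up and down together across libraries. On log2(normalized read count + 1), Pearson's r over the 6 libraries was 0.99 between bta-miR-155 and bta-miR-146b (Spearman's rho 0.89), 0.95 between bta-miR-146a and bta-miR-146b (rho 1) and 0.93 between bta-miR-155 and bta-miR-146a (rho 0.89). These points share library, depth and scaling factor, and r is given as a description. Without the 2 libraries farthest from the median of the first miRNA of a pair, r over 4 libraries was 0.93, 0.89 and 0.85. On the shares of reads other than bta-miR-1246, r was 0.98, 0.94 and 0.96.

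Likeness to other miRNAs was ranked by r over the same 6 libraries, among the 131 miRNAs that had at least 10 reads in each library or belonged to the 3. The closest to bta-miR-155 were bta-miR-146b, bta-miR-21-5p (r = 0.93) and bta-miR-146a. Those closest to bta-miR-146b were bta-miR-155, bta-miR-21-5p (r = 0.96) and bta-miR-1306 (r = 0.95). bta-miR-146a was closest to bta-miR-21-5p (r = 0.95), bta-miR-146b and bta-miR-155. The median r with the other 130 was -0.06 for bta-miR-155, -0.11 for bta-miR-146b and -0.04 for bta-miR-146a, and 3, 4 and 6 of the 130 had an r above 0.9. The likeness of bta-miR-155 to bta-miR-21-5p rested in part on the libraries numbered 1, without which r was 0.59 over 4 libraries.

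Other miRNAs that are induced by NF-kB or act on its pathway were taken from a list of 15. None of the 15 passed the threshold in limma in either direction, and the unadjusted p-value was above 0.05 for each of them. Their log2 fold changes ran from -1.56 to 0.93 with a median of 0.12, 9 above 0 and 6 below, where the 512 miRNAs had a median of 0.01 with 256 above and 256 below. Among the 9 were bta-miR-147 and bta-miR-212, which had at most 1 read in any library, so their direction was not measured. The most abundant of the list were bta-miR-21-5p, induced by NF-kB and AP-1 (log2 fold change 0.12, adjusted p = 0.958 from limma), and bta-let-7i, a regulator of TLR4 (0.16, adjusted p = 0.952 from limma). The largest log2 fold changes were those of bta-miR-10a, with at most 16 reads in a library (-1.56, adjusted p = 0.873 from limma), and bta-miR-181b, with at most 14 reads (0.93, adjusted p = 0.873 from limma). The summed level of the list was 22814 to 33491 normalized read counts in control-EVs and 23926 to 34218 in HS-EVs.

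Markers of other cells were measured beside these results, since miR-155 and miR-146a are abundant in leukocytes. All 5 leukocyte markers (bta-miR-142-3p, bta-miR-142-5p, bta-miR-150, bta-miR-223 and bta-miR-342) had reads in each library, and their sum was 494 to 751 normalized read counts in control-EVs and 588 to 882 in HS-EVs, below the level of bta-miR-155 alone in each library. The 3 red blood cell markers (bta-miR-451, bta-miR-144 and bta-miR-486) summed to 561 to 1283 in control-EVs and 320 to 822 in HS-EVs. The serum miRNA bta-miR-122 had 12232 to 25400 normalized read counts in control-EVs and 7524 to 13633 in HS-EVs. Of the 6 granulosa cell markers, bta-miR-21-5p, bta-miR-132, bta-miR-202 and bta-miR-224 had reads in each library, while bta-miR-212 and bta-miR-383 had at most 1 read in any. The sum of the 6 was 8346 to 16553 in control-EVs and 8509 to 15241 in HS-EVs. Most of it was bta-miR-21-5p, a widely expressed miRNA that is also on the NF-kB list, with 6564 to 14529 in control-EVs and 6299 to 13656 in HS-EVs. The markers bta-miR-132, bta-miR-212 and bta-miR-223 are on the NF-kB list too. bta-miR-202, which is best known from the gonads, had 1672 to 1965 in control-EVs and 1015 to 2087 in HS-EVs. None of these markers passed the threshold, and their part in the levels of the 3 miRNAs was not tested. Because miRNAs are captured with unequal efficiency, levels of markers and of the 3 miRNAs compare as reads and not as molecules.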

How the data were processed

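The labels name Cutadapt 1.11, Bowtie2 2.2.2, the UMD3.1 build and edgeR. Per the methods, unique molecular identifiers were used to merge copies of a read, and reads were mapped to the genome, with at most 1 mismatch in their first part, and to miRBase. The authors deposited 1 normalized signal per miRNA and library (read counts scaled by TMM), without pooling. The smallest nonzero value of a library was taken as 1 read, which made 100% of values whole (largest distance from a whole number 0.000199). limma 3.58.1 (R 4.3.3) was run on log2 of the deposited values plus 1, over all 512 miRNAs and without filter or block. As alternatives, recovered reads were tested with edgeR 4.0.16 (3 miRNAs passed) and DESeq2 1.42.0 (0 passed). Ratios had 0.5 reads added to each member before the log2. Tests across miRNAs were tested on simulated data. The counts of all 15 pairs of libraries differed beyond sampling noise (chi-square per degree of freedom 18.8 to 2008). The 3 miRNAs and the lists were chosen with earlier results of these data known. Named beside them were the 3 most similar miRNAs of each, the 2 most abundant and the 2 most changed of the NF-kB list, and bta-miR-1246. Neighbours in rank were named after their values were seen. No sequences are printed.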

Additional observations from a re-analysis of the deposited data

How the results depend on the processing

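None of the 3 miRNAs passed the threshold under any of the alternatives, and their adjusted p-values lay between 0.574 and 1. With all reads as the scale, bta-miR-1246 included, the log2 fold changes turned to -1.35 for bta-miR-155, -1.01 for bta-miR-146a and -1.11 for bta-miR-146b. Shares of the reads other than bta-miR-1246 turned the differences upwards, to 1.69, 0.0185 and 0.0616 percentage points. With libraries left out, the log2 fold change lay between -0.033 and 0.45 for bta-miR-155, 0.01 and 0.99 for bta-miR-146a and -0.30 and 1.19 for bta-miR-146b. The difference in share of all reads lay between -1.13 and 0.0387, -0.00376 and 0.00418 and -0.0174 and 0.0122 percentage points, with the positive ends without HS-EVs replicate 1. Those of bta-miR-146a and bta-miR-146b were also above 0 without control-EVs replicate 3. The difference in log2 ratio lay between -0.42 and 0.20 for bta-miR-146b over bta-miR-146a, -0.55 and -0.02 for bta-miR-155 over bta-miR-146a and -0.74 and 0.25 for bta-miR-155 over bta-miR-146b. The first turned above 0 without control-EVs replicate 2 or 3 or HS-EVs replicate 1, and the last without control-EVs replicate 1 or HS-EVs replicate 3. Over all libraries these ratios stayed between 1.38 and 1.62, 7.40 and 7.60 and 5.82 and 6.22 on the log2 scale, where 5 libraries cannot give a p below 0.0625. With 1 library left out, the ranks were 3 for bta-miR-155, 108 to 123 for bta-miR-146a and 65 to 76 for bta-miR-146b, and by summed reads they were 3, 113 and 64.

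The number of miRNAs past the threshold was 0 in limma, 1 with a pseudocount of 0.5, 2 with limma's trend, 3 in edgeR's quasi-likelihood test (3 also with the factors of the deposited values, a setting chosen after seeing the data) and 8 in that test with the replicate block. With 1 library left out it lay between 0 and 4 (4 without control-EVs replicate 2, 2 without HS-EVs replicate 1, 3 without HS-EVs replicate 2), and without both libraries numbered 1 it was 31. The cause was not tested. The replicate numbers were not taken as pairs, since the labels do not state that same-numbered libraries belong together. Over all miRNAs, deviations of same-numbered libraries correlated by 0.14, 0.14 and 0.08. Each library correlated best with its own number, a hint from the data and not from the design. With the replicate block, limma's adjusted p-values were 0.924, 0.835 and 0.835 for bta-miR-155, bta-miR-146a and bta-miR-146b, and no call of these miRNAs changed. Compared as same-numbered pairs, the share of all reads of bta-miR-155 gave p = 0.25 (exact sign-flip test, two-sided), the smallest p that 3 pairs allow. At 7 to 82 reads per library, bta-miR-146a had the largest counting error of the 3.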
